A study of Homo sapiens with 4 samples.

Results

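The H3K27ac-associated loops of M14 melanoma cells had 992 anchors that were listed only after STAG2 knockdown (STAG2-KD) and not in the control (WT) list. An anchor is the 5 kb piece of the genome at either end of a loop. They were chosen by the anchor positions of both loop lists: each ended 2 or more loops of the STAG2-KD list, and no anchor of the WT list started within 10 kb of it. They were 9.45% of the 10502 STAG2-KD anchors with 2 or more loops, and the STAG2-KD list held 22070 anchors in all. The reverse rule gave 1093 anchors found only in WT, which were 9.81% of 11139 WT anchors with 2 or more loops. Both lists together held 30601 anchors. Since the rule compares the lists, the absence of WT loops at these anchors and their minimum of 2 loops describe the choice and are not results.

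Cohesin is a ring-shaped complex that holds DNA strands together and extrudes chromatin loops, which are often halted at sites bound by CTCF. STAG2 and STAG1 are alternative subunits of the ring. H3K27ac, acetylation of lysine 27 on histone H3, marks active promoters and enhancers, and HiChIP joins neighbouring chromatin before enriching for such a mark. A loop in such data is a pair of places whose contact was called at an acetylated site. Altered acetylation, altered contact and a loop near the caller's limit cannot be told apart from such a list.

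M14 is a human melanoma line, used here with an inducible short hairpin RNA against STAG2 and kept in puromycin. STAG2-KD cells had 5 days of doxycycline, and cells of the same line without doxycycline were the WT group, so both groups carried the hairpin. The methods describe virus-infected lines of the study as populations selected with antibiotic, without naming this line. The labels listed 2 samples per group and 1 loop list was analysed for each group, so differences between groups were not checked on replicates and carry no p-value. Intervals given below are 95% intervals for the counting of anchors or loops alone. They do not cover variation between cultures, they treat neighbouring anchors as independent, and they were not adjusted for the number of features compared. The lists gave positions without read counts, so the depth behind each loop was unknown.

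There were 27289 WT loops and 25621 STAG2-KD loops, all on the 22 autosomes. Melanocyte genes were checked as markers of the line. Loops ended at the starts of MITF in 7 WT and 2 STAG2-KD cases, of SOX10 in 4 and 4, of PAX3 in 5 and 8, of PMEL in 7 and 4 and of MLANA in 3 and 5. TYRP1 had 2 and 1 and DCT had 3 and 0, whereas TYR had no loop in either list. STAG2 lies on the X chromosome, where neither list had a loop, and loops do not measure the level of an RNA or protein. The knockdown itself was therefore not checked here.

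Among the sequences looked for in the anchors was the one recognised by AP-1. AP-1 factors are dimers of FOS and JUN proteins that bind TGACTCA, which reads TGAGTCA on the opposite strand. One window is shown for each of the 9 leading anchors by number of loops other than that of CAPN2, to let the repeated element be seen in otherwise unrelated DNA. The windows are on hg19, in the GRCh37 sequence, and capitals mark the AP-1 letters.
SPTSSB body, chr3:161066760-161066788, + strand: tctaccttctgTGAGTCAactttcttatc
between PEG10 and PPP1R9A, chr7:94435600-94435628, + strand: ttcaaaccataTGACTCAcaataattaag
MKLN1 intron, chr7:130920613-130920641, + strand: attgcagtgagTGAGTCAgaagccacaag
looped to SLC14A2, chr18:42746359-42746387, + strand: gacttatgatcTGACTCAcagtgtatgct
ENSG00000228176 start, chr1:30181434-30181462, + strand: tcagggctgctTGAGTCAcaagtgacagt
SPRED2, chr2:65593901-65593929, + strand: attgtaccggaTGAGTCAtccgagggtta
FMNL2 intron, chr2:153257504-153257532, + strand: caaggagtatgTGACTCAgttctcaataa
looped to ARID5B, chr10:63546590-63546618, + strand: tcttttgaaaaTGAGTCAtggtcagaaat
looped to PPCDC, chr15:75442568-75442596, + strand: cacccaggaacTGACTCAgtgcaacaact

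The anchor at the CAPN2 gene, which encodes the catalytic subunit of a calcium-dependent protease, held 4 matches and is shown with all of them. All 4 fell within a stretch shorter than 1 kb.
CAPN2, chr1:223888789-223888817, + strand: ccttctgagtaTGAGTCAgaaagctgagg
CAPN2, chr1:223889110-223889138, + strand: tctttgtgctcTGAGTCAgaagctatgtg
CAPN2, chr1:223889145-223889173, + strand: ttgctaaaatgTGACTCAaacacagcctc
CAPN2, chr1:223889524-223889552, + strand: ggccaacatggTGAGTCAatactaaaaat

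A pair of promoters from the set is shown because these genes had no loop at any start in WT and because their DNA differs in kind. CCN1 encodes a secreted matrix protein, and GBP2 encodes an interferon-induced GTPase. The 200 bases before their canonical starts held 16 CG pairs at 62.5% GC for CCN1 and 0 CG pairs at 35% GC for GBP2. Capitals mark an AP-1 match in the GBP2 window, and the CCN1 window held none.
CCN1, chr1:86046244-86046443, + strand: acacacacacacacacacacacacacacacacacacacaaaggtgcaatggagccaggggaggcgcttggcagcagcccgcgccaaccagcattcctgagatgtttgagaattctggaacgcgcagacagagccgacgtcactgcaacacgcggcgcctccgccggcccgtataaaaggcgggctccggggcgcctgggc
GBP2, chr1:89591798-89591997, - strand: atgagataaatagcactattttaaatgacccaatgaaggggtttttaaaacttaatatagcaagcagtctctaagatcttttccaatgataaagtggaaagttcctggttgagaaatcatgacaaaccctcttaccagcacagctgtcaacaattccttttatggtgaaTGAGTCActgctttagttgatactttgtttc

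Most anchors of the set ended few loops. Of the 992, 702 ended exactly 2 loops, 185 ended 3, 63 ended 4, 23 ended 5 and 19 ended more, with a maximum of 9. The mean was 2.48 loops, against 3.91 for the 9510 other STAG2-KD anchors with 2 or more loops. The promoter, partner and distance comparisons below are therefore also given for anchors of exactly 2 loops. The nearest WT anchor lay at a median of 35 kb. It was 15 kb away, the smallest distance the rule allows, for 191 anchors and 100 kb or more away for 224. At 40 anchors it was 500 kb or more away, and the most remote anchor, chr21:23085001-23090000, was 3855 kb from the nearest WT anchor. Anchors just inside the limit, at 15 kb, had 2.41 loops and a transcript start in 31.4% of cases. The 244 anchors just outside it, at 10 kb, had 2.56 loops and a start in 28.3%.

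The first question was whether these anchors are promoters. Transcript starts of any annotated gene lay in 295 of them, 29.7% (26.9 to 32.7), against 48.3% of the other STAG2-KD anchors. The difference was -18.6 percentage points (-21.5 to -15.5), and the share was lower on 20 of 22 chromosomes. It was smaller among anchors with exactly 2 loops, where 31.3% of the set and 44.8% of the others held a start, a difference of -13.5 points (-17.2 to -9.61). Anchors found only in WT held a start in 33.9%, so the low promoter share was largely common to anchors of 1 list only. The set differed from these by -4.21 points (-8.18 to -0.198), with that sign on 14 of 22 chromosomes.

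Start sites of the main transcript were rarer still. The canonical start of a protein-coding gene lay in 113 anchors of the set, 11.4% (9.48 to 13.5), against 29.5% of the other STAG2-KD anchors and 17% of the anchors found only in WT. The difference from the other STAG2-KD anchors was -18.1 points (-20.1 to -15.8) and had the same sign on all 22 chromosomes. From the anchors found only in WT it was -5.63 points (-8.60 to -2.63), on 17 of 22. Protein-coding starts of any kind lay in 216 anchors of the set, so many of these anchors held only starts other than the canonical one. Of the anchors without any start, 258 lay within introns, 128 overlapped both exons and introns and 311 lay outside protein-coding genes. No annotated gene of any kind was overlapped by 22.2%, against 12.7% of the other STAG2-KD anchors, a difference of 9.44 points (6.88 to 12.2).

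Within the set the promoter share was lower at anchors with more loops, although the intervals of the lowest and highest classes overlap. Anchors of the set with 2, 3 and 4 loops held a start in 31.3%, 29.7% and 22.2% of cases. With 5 or more loops it was 6 of 42, 14.3% (5.43 to 28.5), whereas 52.9% of the other STAG2-KD anchors with 5 or more loops held one. Anchors found only in WT gave 36.3%, 30%, 24.3% and 27.1% for the same 4 classes. Distance from the nearest WT anchor made little difference, with shares of 29.8% at 15 to 20 kb, 31.2% at 25 to 45 kb, 30.6% at 50 to 95 kb and 27.2% at 100 kb or more.

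**Figure D1:**
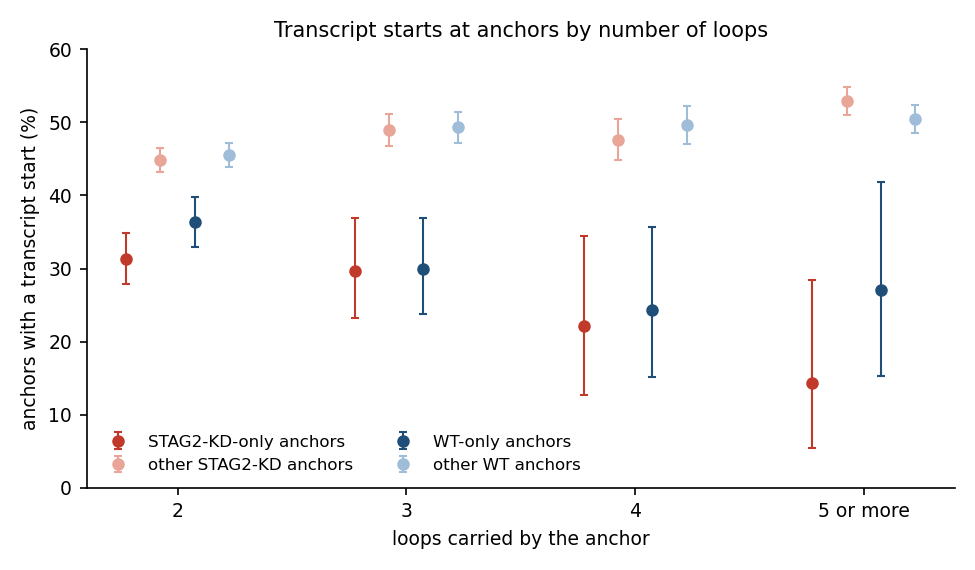
Share of anchors that hold a transcript start, in percent, by the number of loops the anchor ends, for STAG2-KD-only anchors, other STAG2-KD anchors, WT-only anchors and other WT anchors. Bars are 95% exact intervals for counting error. The STAG2-KD-only anchors run from 31.3% at 2 loops to 14.3% at 5 or more, while the other STAG2-KD anchors run from 44.8% to 52.9%.

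The 10 anchors with the most loops were mostly not promoters. They had 9 to 7 STAG2-KD loops and, by the rule, none in WT. Only CAPN2 and SPRED2 among them had a protein-coding start, and a further one held the start of a long non-coding RNA. The anchor chr3:161065001-161070000 lay in the body of SPTSSB, which encodes a small subunit of serine palmitoyltransferase, the first enzyme of sphingolipid synthesis. It had 9 loops. One reached KPNA4, an importin of the nuclear pore pathway, 785 kb away, and its anchor rose from 2 loops in WT to 5. Another reached a start of SPTSSB 25 kb away, which had no WT loop. Its nearest WT anchor was 95 kb away, and 2 of its partners belonged to the set. By the rule, loops between a partner and the set are absent from WT. The STAG2-KD counts of named partners, here and below, include them, so part of a rise follows from the choice.

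The anchor chr7:94435001-94440000 also had 9 loops. It lay 105 kb from the nearest WT anchor, between imprinted genes and PPP1R9A, which encodes a neuronal actin-binding scaffold. Its loops reached starts of PPP1R9A at 100 kb, PEG10 at 145 kb, SGCE at 185 kb and CASD1 at 300 kb. PEG10 and SGCE are neighbouring genes expressed from the paternal copy. None of these 4 start bins ended a loop in WT, although 5 of the 9 partners lay within 10 kb of a WT anchor.

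CAPN2 had 8 loops at chr1:223885001-223890000, where an alternative start lies 10894 bases from the canonical one. All partners were on the same side, at 40 to 845 kb. The farthest lay in the body of CNIH3, which encodes an auxiliary subunit of glutamate receptors, and ended 11 loops in WT and 14 in STAG2-KD. The next ended at NVL, a nuclear ATPase of ribosome assembly, 630 kb away, with 1 and 2 loops. The nearest WT anchor was 355 kb from this CAPN2 anchor. Over all CAPN2 starts there were 0 WT loops and 10 STAG2-KD loops, and 2 of the latter ended at the bin of the canonical start.

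Other leading anchors joined regions that were busy in both lists. The MKLN1 intron at chr7:130920001-130925000 had 8 loops, and all 8 partners were within 10 kb of a WT anchor, including MKLN1 starts with 14 loops in WT and 11 in STAG2-KD and with 4 and 6. The FMNL2 intron at chr2:153255001-153260000 had 7 loops, and all 7 partners were WT anchors inside FMNL2, which encodes a formin that elongates actin filaments. Those partners ended 2 to 13 WT loops and 4 to 15 STAG2-KD loops. In both introns the nearest WT anchor was 20 kb away, so these anchors were additions among loops listed in both states.

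SPRED2, an inhibitor of RAS-ERK signalling, had 7 loops at chr2:65590001-65595000. That start lies 65847 bases from the canonical start, whose own bin had no loop in either list. A partner 70 kb away, chr2:65660001-65665000, rose from 3 loops in WT to 9, and one 190 kb away from 1 to 7. The first of these is the bin next to that of the canonical start, which is at base 65659733. A bin beside the canonical start thus already ended loops in WT. Counted in the exact bins of all SPRED2 starts, the loops were 0 and 7. The nearest WT anchor was 25 kb away, in contrast to the isolated CAPN2 anchor.

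The remaining leading anchors had 8 or 7 loops. On chromosome 18, chr18:42745001-42750000 reached a start of SLC14A2, a urea transporter, 45 kb away. It also reached an anchor in SETBP1 435 kb away that rose from 1 loop to 12, counting its loops to 5 members of the set. The lncRNA start ENSG00000228176 at chr1:30180001-30185000 lay 350 kb from the nearest WT anchor. It had the longest reach of the 10, to LAPTM5, a lysosomal membrane protein, at 1050 kb and MATN1, a cartilage matrix protein, at 1010 kb, both anchors with WT loops (6 and 7). Its other named partner was MECR, an enzyme of mitochondrial fatty acid synthesis, at 625 kb. The anchor chr10:63545001-63550000 reached a start of ARID5B, a DNA-binding chromatin regulator, 260 kb away, which had 3 loops in each list. The anchor chr15:75440001-75445000 reached C15orf39, which had 5 loops in WT and 11 in STAG2-KD, and PPCDC, an enzyme of coenzyme A synthesis, which had 0 and 3.

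**Figure D2:**
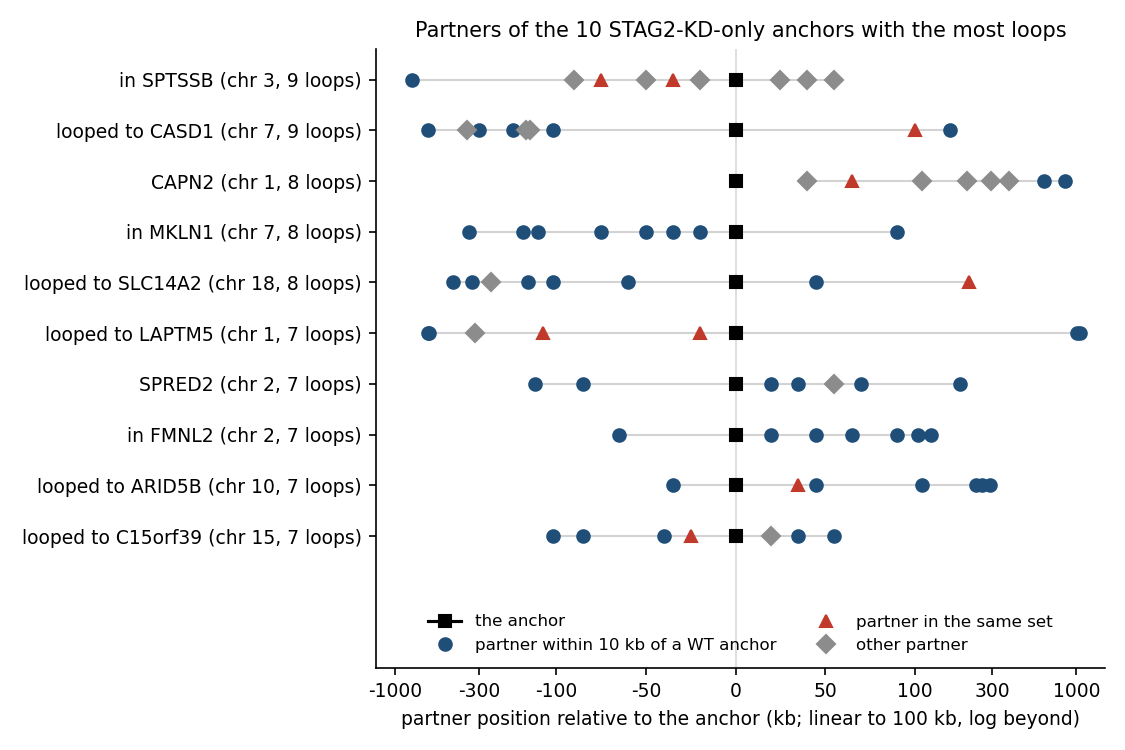
Partners of the 10 STAG2-KD-only anchors with the most loops, placed by their distance from the anchor in kb, on an axis that is linear to 100 kb and logarithmic beyond. Circles are partners within 10 kb of a WT anchor, triangles are partners in the same set and diamonds are other partners. All 8 partners of the MKLN1 anchor and all 7 of the FMNL2 anchor are circles, whereas the SPTSSB anchor has 1 and the CAPN2 anchor 2.

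Protein-coding starts were found in 216 anchors of the set, for 229 genes. Of these genes, 170 had no start in any WT anchor and 59 had another start that did end a loop in WT. The difference matters for reading the names, since a gene of the second kind was already looped in WT from another promoter. The genes with the most loops are described by that distinction, after CAPN2 and SPRED2.

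Several genes had loops at the canonical start in STAG2-KD and none in WT. NECAP1, an adaptor of clathrin-coated vesicles, had 5 loops at chr12:8230001-8235000. One of them reached SLC2A3, a glucose transporter, 145 kb away, which had 6 loops in WT and 7 in STAG2-KD. ZFYVE9, which brings SMAD proteins to the TGF-beta receptor, had 4 loops at chr1:52605001-52610000. Among its partners were CC2D1B at 225 kb, with 1 and 3 loops, and at 265 kb the shared start region of ORC1, a subunit of the origin recognition complex, and PRPF38A, a splicing factor, with 0 and 5.

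PCLAF, a PCNA-binding protein of DNA replication, shared its anchor chr15:64670001-64675000 with the readthrough gene ENSG00000259316, so its 4 loops cannot be assigned between them. They reached CSNK1G1, a casein kinase, at 30 kb, PPIB, a prolyl isomerase of the endoplasmic reticulum, at 220 kb and the starts of CIAO2A and SNX1 at 285 kb, where WT had 5 loops and STAG2-KD had 11. PPP6R2, a regulatory subunit of protein phosphatase 6, had 4 loops at chr22:50780001-50785000, to MAPK11 and MAPK12, both p38 kinases, and to TUBGCP6, a component of the gamma-tubulin ring. Of these partners MAPK12 had no WT loop and 1 in STAG2-KD.

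TRAIP, a ubiquitin ligase of the replication stress response, had 3 loops at chr3:49890001-49895000. Each ended at a protein-coding start, namely MST1R, a receptor tyrosine kinase, at 50 kb, IP6K1, an inositol phosphate kinase, at 70 kb and GMPPB, an enzyme of GDP-mannose synthesis, at 130 kb. MAU2, which loads cohesin onto DNA together with NIPBL, shared chr19:19430001-19435000 with SUGP1, a splicing factor that starts on the opposite strand, so their 3 loops cannot be told apart. The partners were GATAD2A, a subunit of the NuRD complex, with 3 loops in WT and 6 in STAG2-KD, NR2C2AP with 0 and 1 and the start region of RFXANK, BORCS8 and MEF2B with 1 and 2. Genes with equal numbers of loops were ordered by their protein-coding partners, so the promoters at the other ends of these short lists follow from that order.

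Other genes had loops at an alternative start only. ANKRD29 had 6 at chr18:21205001-21210000, 1 of which ended at a start of LAMA3, a laminin chain, and it had none in WT at any start. ITPRIP, which modulates the inositol trisphosphate receptor, had 4 at chr10:106085001-106090000. This anchor was 205 kb from any WT anchor and none of its partners was within 10 kb of one. NISCH, which binds integrin and restrains migration, had 3 at chr3:52490001-52495000, a start 3088 bases from the canonical one in the neighbouring bin. They reached PHF7, UQCC5 and GNL3, which had 5, 6 and 2 STAG2-KD loops against 2, 3 and 2 in WT. For these 3 genes the WT count over all starts was 0.

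A further group was looped in WT from another start. VASP, which elongates actin filaments, had 9 WT and 11 STAG2-KD loops over all starts, of which 4 ended at the set's anchor chr19:46025001-46030000. HM13, the signal peptide peptidase, had 8 and 12, with loops from chr20:30145001-30150000 to ID1, an inhibitor of helix-loop-helix factors, and TPX2, a spindle assembly factor. ZMYND8, a chromatin reader, had 13 and 17, and MACF1, which links microtubules to actin, 7 and 14. LSM12 had 6 and 8 and RBMS3, an RNA-binding protein, 7 and 11. These totals count loop ends at the start bins. In each of these genes except VASP, the set's anchor was joined to another start of the same gene. Such a loop is counted at both ends, so these totals exceed the number of distinct STAG2-KD loops. In RBMS3 the nearest partner of the new anchor was 240 kb away and in MACF1 one partner inside the gene rose from 4 loops to 13.

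The gene lists were read at the same anchors. Of 33 interferon genes with a start at a STAG2-KD anchor of 2 or more loops, 3 were at the set (IRF1, IFI44L and GBP2). Over all protein-coding genes the figures were 229 of 4365. IFI44L, an interferon-stimulated gene, had 0 loops in WT and 3 in STAG2-KD at chr1:79085001-79090000. One of them joined its neighbour IFI44, whose start rose from 1 loop to 4. GBP2 had 0 and 2 at chr1:89590001-89595000, both to genes of its own family, GBP1 at 60 kb (2 loops in each list) and GBP3 at 105 kb (4 and 3).

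IRF1, a transcription factor of the interferon response, was in the set through an alternative start, 17730 bases from the canonical one. That anchor, chr5:131805001-131810000, had 2 loops and one of them ended at another IRF1 start, which had 7 loops in WT and 12 in STAG2-KD. Over all IRF1 starts there were 7 loop ends in WT and 14 in STAG2-KD, with the loop between these starts counted at both. The gene was therefore not newly looped. Partners of the set held starts of 8 of the 44 interferon genes at any STAG2-KD anchor, namely IRF1 again, JAK1, OAS2, IFI44, PARP14, GBP1, PSMB9 and TAP1. Over all protein-coding genes it was 798 of 7080.

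The other lists were thin. None of 12 melanocyte genes, none of 7 AP-1 genes and none of 3 neuronal genes with a start at a STAG2-KD anchor of 2 or more loops were at the set. The same was true of the keratinocyte list (2 genes) and the immune cell list (4 genes), which stand for other cell types. The mesenchymal list gave CCN1 out of 17, with 0 loops in WT and 3 in STAG2-KD at chr1:86045001-86050000. Its partners lay 30, 50 and 255 kb away, 2 of them in the set, and the farthest was inside DDAH1, an enzyme that degrades an inhibitor of nitric oxide synthesis. The ERK list gave SPRED2 out of 13 and the cohesin list MAU2 out of 5. Partners held starts of 2 of the 7 AP-1 genes at any STAG2-KD anchor, FOSL2 and MAFF, and of 4 of the 20 ERK genes, DUSP5, DUSP6, ETV1 and CCND1.

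The next question was what the anchors were joined to. They had 2457 loop ends, and 61.5% of these led to a bin that was an anchor in WT. Within 10 kb of a WT anchor lay 70.3% of partners (68.4 to 72.1). For loops of the other STAG2-KD anchors that were absent from WT the share was 81.5%, a difference of -11.3 points (-13.2 to -9.40) with the same sign on 17 of 22 chromosomes, and of -13.8 points (-16.5 to -11.2) at exactly 2 loops. Every partner was near a WT anchor at 545 anchors of the set and none was at 156. Anchors found only in WT gave 72.5% by the mirror measure, a difference of -2.18 points (-4.65 to 0.284) whose interval includes 0. Partners that belong to the set are, by the rule, not near a WT anchor and lower the share.

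Partners already used in WT ended more loops than the average anchor. Of 1880 distinct partners outside the set, 1298 were bins used in WT, and they ended 3.95 loops on average in WT (SD over partners 3.76) and 5.10 in STAG2-KD (SD 3.75). Without their loops to the set, they ended 3.94 in STAG2-KD. All anchors present in both lists averaged 3.00 and 2.84. A partner with more loops has more chances to be joined to the set, so this level is not independent of how partners were found.

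Joins within the set were more common than for other anchors. The partner was itself in the set for 14.2% of loop ends, against 7.66% for the other STAG2-KD anchors, a difference of 6.51 points (5.13 to 7.99), and of 7.19 points (5.27 to 9.25) at exactly 2 loops. Anchors found only in WT were joined to each other at 11.9% of ends. The set differed from these by 2.31 points (0.479 to 4.16), higher on 11 chromosomes and lower on 11. The rule takes places without a nearby WT anchor, and neighbouring places can share this. Part of the excess over the other STAG2-KD anchors may thus follow from the choice, which was not tested. In all, 174 loops joined 2 anchors of the set, 271 anchors took part in them and 36 had no other kind of partner. Of the partners outside the set, 1688 were joined to 1 anchor of it, 161 to 2 and 31 to 3 or more.

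The promoter share of the partners was close to that of partners elsewhere. They held a transcript start in 41.1% of cases, against 40.7% for the other STAG2-KD anchors, a difference of 0.383 points (-1.66 to 2.46). At exactly 2 loops the sign turned, with -2.24 points (-5.24 to 0.793) for any start and -2.84 points (-5.72 to 0.0926) for protein-coding starts, the latter lower on 16 of 22 chromosomes. Within the set the kind of anchor mattered. Anchors with a start were joined to a start in 51.5% of cases and those without in 36.9%, a difference of -14.6 points (-18.9 to -10.2) with the same sign on 17 of 22 chromosomes. A protein-coding start lay at 1 or more partners of 562 anchors, among them 366 of the 697 that held no start of their own. These partners carried 798 protein-coding genes.

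The loops of the set were then measured. The 2283 loops bridged a median of 75 kb (70 to 80), with quartiles of 35 and 165 kb and a maximum of 1585 kb. Other STAG2-KD loops absent from WT had a median of 100 kb, loops of the anchors found only in WT 90 kb and STAG2-KD loops also present in WT 75 kb. Loops under 50 kb made up 34.7% of the set's loops, against 27.2% of the other STAG2-KD loops absent from WT, a difference of 7.50 points (5.42 to 9.62), on 17 of 22 chromosomes. In the earlier 50% of each chromosome's lines this difference was 0.0355 points (-2.61 to 2.77), with the anchors chosen anew from those lines. The set's lines stood at a median of 62.3% of the way down, and those of the other loops absent from WT at 54.2%. What the order of lines stands for was not stated.

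Loops of 200 kb or more were fewer than among other loops absent from WT. From 200 to under 500 kb the set had 16.0% and the other loops 21.7%, a difference of -5.71 points (-7.33 to -4.00). Loops of the anchors found only in WT had 18.6% there, a difference of -2.59 points (-4.72 to -0.452). At 500 kb or more it had 4.38% against 5.90%, and against 2.78% for the anchors found only in WT, a difference of 1.60 points (0.557 to 2.68). The 2 classes thus lay on opposite sides of the WT-only anchors. Among anchors with exactly 2 loops the medians were 65 kb in the set and 80 kb in the others, and the difference under 50 kb was 6.49 points (3.46 to 9.55). The other differences shrank there, to -1.32 points (-3.58 to 1.05) from 200 to under 500 kb and -0.225 points (-1.35 to 1.07) at 500 kb or more, and both intervals include 0. Loops within the set were the shortest, with a median of 50 kb (40 to 65) over 174. Median loops were longer at isolated anchors. Anchors 15 to 20 kb from a WT anchor had a median loop of 57.5 kb, and those 100 kb or more away 105 kb. Over the whole set 70.3% of partners lay within 10 kb of a WT anchor, and an isolated anchor needs a longer loop to reach such a partner. That share was not split by isolation, and the part of the rule's distance in this order was not tested.

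The longest loop of the set, 1585 kb on chromosome 7, spanned chr7:83570001-85160000 on hg19. Its right anchor belonged to the set and lay in a region with no gene start within 50 kb, and its left anchor rose from 2 loops in WT to 9. The same right anchor reached SEMA3D, a secreted guidance protein, 340 kb away. The most remote anchor, on chromosome 21, reached a place in NCAM2, a neural adhesion molecule, 350 kb away, where WT had no anchor within 3505 kb.

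**Figure D3:**
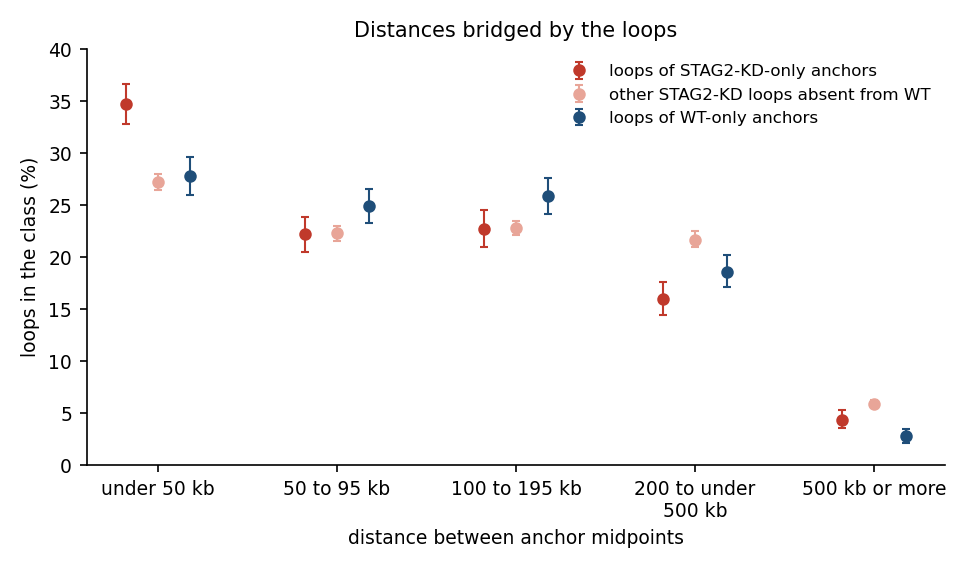
Share of loops in 5 classes of distance between anchor midpoints, in percent, for loops of STAG2-KD-only anchors, other STAG2-KD loops absent from WT and loops of WT-only anchors. Bars are 95% exact intervals for counting error. Under 50 kb the STAG2-KD-only anchors have 34.7% and the other sets 27.2% and 27.8%, and from 200 to under 500 kb they have 16.0% against 21.7% and 18.6%.

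Members of the set were scattered along the genome, with a few dense places. Joining neighbours within 10 kb left 966 stretches, 940 of them a single anchor. Of 523 windows of 5 Mb with a STAG2-KD anchor of 2 or more loops, 365 held a member. Among the windows with the most members, the densest by share was chr18:40000001-45000000, where 10 of 19 such anchors, 52.6%, were in the set. A member there held a start of SETBP1, mutated in a developmental disorder and in myeloid leukaemia. An anchor in the body of this gene, chr18:42310001-42315000, was joined to 5 members of the set, more than any other partner. Chromosome 1 had 11 of 58 in the window from 5 to 10 Mb and 11 of 37 in that from 170 to 175 Mb.

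Loops joined members into 111 groups, 83 of them pairs. The largest, with 7 members and 7 loops between them, spanned chr4:13655001-13995000, where the lncRNA LINC01182 had starts at 2 members. None of its members overlapped a protein-coding gene, and they were 95 to 325 kb from any WT anchor. A pair of its members reached CPEB2, a regulator of translation, over 1345 and 1305 kb. The start bin of LAMC1, a laminin chain, at chr1:182990001-182995000 was a partner of 3 members. It rose from 1 loop to 7, counting the loops to those members.

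A group of 6, chr9:110245001-111035000, included part of KLF4, a transcription factor of epithelial and stem cells, and lay 175 to 470 kb from WT anchors. The group of 6 at chr18:42745001-42965000 joined the anchor looped to SLC14A2 with 5 others. Its members included part of the body of that gene and lay 30 to 130 kb from WT anchors. A group of 5 on chromosome 5 held the start of F2RL1, a protease-activated receptor, and part of IQGAP2, a scaffold protein. Among the partners, the PRKCH start, of a protein kinase C, was joined to 4 members. It rose from 1 loop to 7, counting the loops to those members. The share of STAG2-KD anchors in the set ran from 6.20% on chromosome 19 (4.22 to 8.73) to 15.1% on chromosome 9 (11.1 to 19.8). The WT-only share was also lowest on chromosome 19, at 4.43% (2.79 to 6.63), and was 16.5% (12.5 to 21.1) on chromosome 9. These low and high shares were thus not particular to the set.

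**Figure D4:**
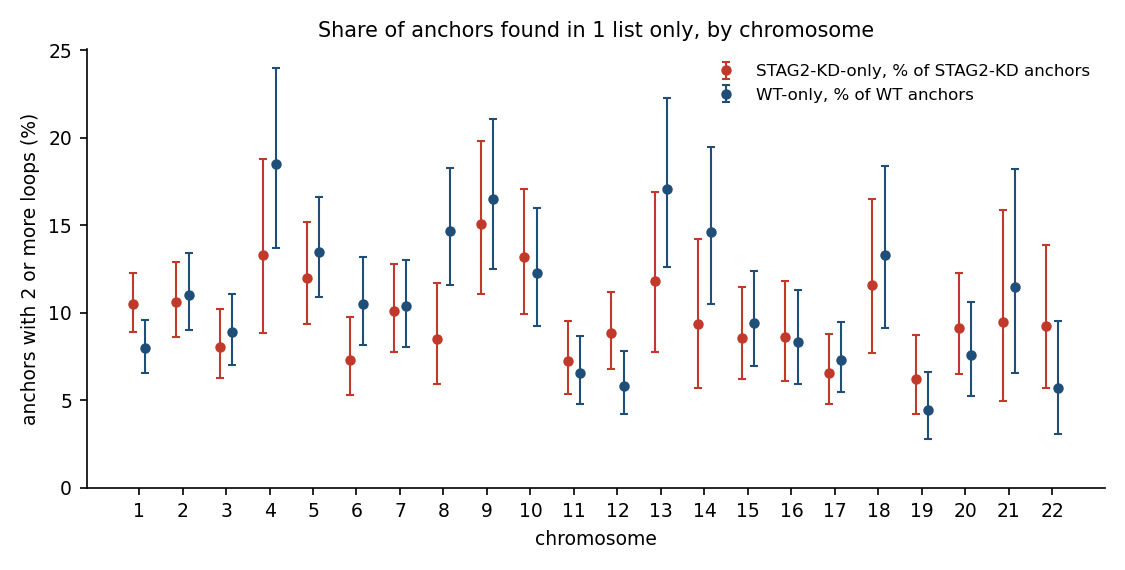
Share of anchors with 2 or more loops that are found in 1 list only, in percent, by chromosome. Red points are STAG2-KD-only anchors as a share of STAG2-KD anchors, blue points are WT-only anchors as a share of WT anchors, and bars are 95% exact intervals for counting error. The STAG2-KD-only share is lowest on chromosome 19 (6.20%) and highest on chromosome 9 (15.1%), where the WT-only shares are 4.43% and 16.5%. On chromosome 1 the STAG2-KD-only share is 10.5% against 7.98% in WT.

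The sequence of the anchors was examined last. Median GC content was 42.9%, against 45.6% in the other STAG2-KD anchors and 43.3% in those found only in WT. Among anchors without a start the medians were 42.1%, 42.7% and 41.4%, so most of the gap went with the promoters. The median number of GATC sites, where MboI cuts, was 14 in each of these sets. The mean was 14.5 in the set (SD over anchors 3.98), 14.7 in the other STAG2-KD anchors (SD 4.07) and 13.8 in those found only in WT (SD 3.89), and the part of this in the contrasts with the WT-only anchors was not tested.

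The AP-1 letters shown for the leading anchors were searched on both strands of all anchors. The search began with TGANTCA, found in 87.0% of the set, 81.1% of the other STAG2-KD anchors, 79.5% of the anchors found only in WT and 79.2% of all 5 kb bins. It was then narrowed, after those shares were seen, to TGACTCA, the spelling that AP-1 binds best. TGACTCA was present in 713 anchors, 71.9% (69.0 to 74.7), against 63.7% of the other STAG2-KD anchors, 54.3% (51.3 to 57.3) of the anchors found only in WT and 54.1% of all 5 kb bins. The difference from the other STAG2-KD anchors was 8.21 points (5.18 to 11.1), on 16 of 22 chromosomes, and that from the anchors found only in WT was 17.5 points (13.4 to 21.5), on 18 of 22. Matches per anchor averaged 1.29 in the set, 1.08 in the other STAG2-KD anchors and 0.80 in those found only in WT. The anchors found only in WT in turn differed from the other WT anchors by -6.46 points (-9.57 to -3.38), so both sets departed from their own list, in opposite directions.

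A spelling with the other centre, TGAATCA, served as a control. It has 1 G or C fewer. It was present in 57.1% of the set, 51.1% of the other STAG2-KD anchors and 55.7% of those found only in WT and 56.2% of all bins. It too exceeded the other STAG2-KD anchors, by 5.96 points (2.70 to 9.17), but differed from the WT-only anchors by 1.34 points (-2.92 to 5.59). Against the other STAG2-KD anchors the AP-1 spelling was therefore little more in excess than the control, and the contrast with the WT-only anchors was the larger one. In the earlier 50% of lines the excess over the other STAG2-KD anchors was 2.31 points (-1.64 to 6.08), while that over the WT-only anchors was 12 points.

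The AP-1 share was higher at anchors with more loops. It was 69.4% at 2 loops, 72.4% at 3 and 92 of 105, 87.6% (79.8 to 93.2), at 4 or more. The other STAG2-KD anchors had 62.0%, 62.2% and 66.0%, the WT-only anchors 55.3%, 52.2% and 51.6%, and the control spelling in the set 56.7%, 55.1% and 62.9%. Among anchors of 40 to 45% GC the AP-1 share was 76.3% in the set, 67.5% in the other STAG2-KD anchors, 56.4% in the WT-only anchors and 56.7% in all 5 kb bins of that GC content. There the control spelling also exceeded the WT-only anchors, by 9.66 points (2.58 to 16.6), against 19.9 points (13.1 to 26.4) for TGACTCA. Among anchors without a start the AP-1 shares were 75.2%, 69.5% and 57.6%. Partners outside the set held the sequence in 68.7%.

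**Figure D5:**
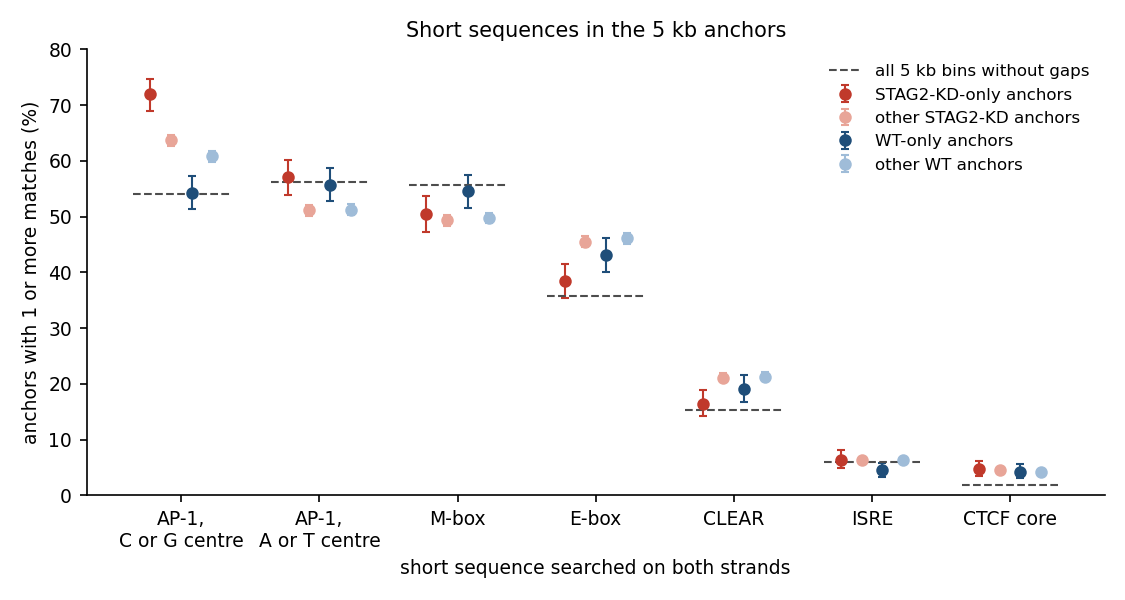
Share of 5 kb anchors that hold each short sequence on either strand, in percent, for STAG2-KD-only, other STAG2-KD, WT-only and other WT anchors, with the share of all 5 kb bins for reference. Bars are 95% exact intervals for counting error. For the AP-1 spelling TGACTCA the STAG2-KD-only anchors have 71.9% and the WT-only anchors 54.3%, whereas for the control spelling they have 57.1% and 55.7%.

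Sequences of other factors differed less or in the other direction. A strict core of the CTCF motif was present in 4.64% of the set and 4.50% of the other STAG2-KD anchors, a difference of 0.136 points (-1.09 to 1.68), and in 1.89% of all 5 kb bins. The interferon-stimulated response element, bound by IRF and STAT complexes, was present in 6.35% and 6.36%, a difference of -0.0123 points (-1.46 to 1.75), against 4.48% of the WT-only anchors and 5.98% of all bins. The M-box TCATGTG, bound by MITF, the melanocyte master regulator, was present in 50.5% and 49.3%, in 54.5% of the WT-only anchors and in 55.7% of all bins. The E-box CACGTG, also bound by MITF and by MYC, was rarer in the set, with 38.4% against 45.5%, a difference of -7.13 points (-10.3 to -3.91), and 43.1% in the WT-only anchors and 35.7% in all bins. The CLEAR element TCACGTG, bound by TFEB and MITF, contains it and was present in 16.4% against 21.1%, a difference of -4.65 points (-6.97 to -2.08), and in 15.3% of all bins. Both elements contain a CG pair. The set had a median of 50 CG pairs per anchor, against 72 in the other STAG2-KD anchors and 54 in the WT-only anchors. The part of this in the E-box and CLEAR differences was not tested. A match describes the letters and is not evidence of binding, and no match says nothing about a factor elsewhere.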

How the data were processed

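H3K27ac HiChIP of M14 cells was labelled as 2 WT and 2 STAG2-KD samples, and 1 loop list per group, filed under replicate 1, was analysed. Whether a list merges replicates was not stated. According to the methods and labels, the authors cut chromatin with MboI, aligned reads to hg19 with HiC-Pro, called peaks with hichip-peaks and loops with FitHiChIP. Tool versions are not given in the sources used here. The deposited lists hold chromosome, left anchor start and right anchor end, with no score, so the precision of a single loop is unknown.

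Anchors were taken as 5 kb bins on hg19, printed from base 1. Transcript starts were those of GENCODE release 44 in its lift to GRCh37, the same build, which also gave the sequence. Distances were between anchor midpoints. Shares have exact Clopper-Pearson intervals, differences Newcombe intervals and medians order-statistic intervals, all at 95%. The matching rule was tested on simulated data, where 100 of 100 planted anchors were recovered. The software was matplotlib 3.10.9, pandas 2.3.3, scipy 1.17.1 and numpy 2.4.6 under Python 3.11.15.

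Named are the 10 anchors with the most loops, up to 20 protein-coding starts by loops, the longest loop, the most remote anchor, the largest groups, the windows with the most members, their partners, and every listed gene at the set. Results of 1 such gene and 1 group, and of groups of 4 or fewer, are not reported here. The most remote anchor and the smaller groups were added after values were seen. The members, the gene lists and the comparisons were chosen with earlier results of these data known. Alternatives changed the distance limit, the loops required, the start definition, the lines used, the merging of neighbours, and left out each chromosome. A stricter loop score could not be tried.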

Additional observations from a re-analysis of the deposited data

How the results depend on the processing

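No paired analysis was possible because only 1 list stood for each group, and no fit without a replicate was made for the same reason. Of 414 recomputed values, 372 stayed close to the reported ones, 42 moved further and no difference whose interval excludes 0 changed sign. A value was close if it lay inside the reported interval, or for a plain count within a fixed fold of it. Leaving out 1 chromosome made up 286 of the 414 and changes little of the data, and nearly all values that moved came from the other alternatives. The CTCF difference of 0.136 points, whose interval includes 0, ran from -0.819 to 0.866.

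Requiring 1 or more loops gave 4478 anchors, a promoter difference of -13.3 points, a difference under 50 kb of 12.3 points, 29.6% of partners in the set, an AP-1 difference (TGACTCA) from the WT-only anchors of 11.4 points and 16 listed genes. Requiring 3 or more gave 290 anchors, a promoter share of 25.9%, a promoter difference of -24.5 points, a median of 85 kb, 2.01 points under 50 kb, 7.79% of partners in the set, AP-1 differences of 13.3 points from the other STAG2-KD anchors and 25.9 from the WT-only anchors, and 12.7 from the latter with any centre. A limit of 20 kb gave a median of 90 kb, 2.68 points under 50 kb, and 60.2% of partners near a WT anchor and 16.1% in the set. A limit of 5 kb put 74.2% of partners near a WT anchor. The same bin alone gave 1681 anchors, 77.7% and 16.2% for these partner shares and 12 listed genes.

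The earlier 50% of lines gave 638 anchors, a promoter share of 38.2%, a promoter difference of -9.85 points, 0.0355 points under 50 kb, 60.8% of partners near a WT anchor, 16.7% in the set, and AP-1 differences of 2.31 points from the other STAG2-KD anchors (2.28 with any centre) and 12 from the WT-only anchors. The cause was not tested. Other definitions of a promoter gave 21.8% for protein-coding starts, 11.4% for canonical starts and 51.2% for starts within 5 kb, the last with a difference of -14.2 points, and anchors of exactly 2 loops gave -13.5.

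Alternatives using other spellings or subsets of anchors were chosen after seeing the data. The control spelling gave 1.34 points against the WT-only anchors, anchors without a start 3.35 points against the other STAG2-KD anchors with any centre, and anchors of 40 to 45% GC 12.9 points against the WT-only anchors with any centre. Leaving out each chromosome in turn left 285 of 286 values close, and without chromosome 1 the 6 listed genes became 3. Merging neighbours, a limit of 1 Mb and leaving out the line off the grid moved no value.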
